A study of Mus musculus with 18 samples.

Results

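Oxidative phosphorylation was followed through 93 protein-coding genes of 40800 genes counted in mouse lens RNA. The genes were taken by name. They are those on the mitochondrial DNA (prefix mt-), the Nduf subunits of complex I and the Uqcr subunits of complex III. Added to these are the Cox4 to Cox8 subunits of complex IV and the Atp5 genes, grouped under complex V. Of the 93 genes, 80 are nuclear: 37 in complex I, 8 in complex III, 18 in complex IV and 17 in complex V. The other 13 are mitochondrial: 7 in complex I, 1 in complex III, 3 in complex IV and 2 in complex V. Atp5sl, also named Dmac2, is counted under complex V by its name and is not a subunit of the ATP synthase. Whole lenses of C57BL/6J mice were collected and several were pooled for each of 18 libraries, 3 in each of 6 groups. At 2 days of age there was a wild type group, Cryaa-WT, a group with 1 knock-in allele of the αA-crystallin gene, Cryaa-R49C-het, and one with 2, Cryaa-R49C-homo. At 14 days of age there was a wild type group, Cryab-WT, a group with 1 knock-in allele of the αB-crystallin gene, Cryab-R120G-het, and one with 2, Cryab-R120G-homo. Both alleles replace an amino acid in a lens chaperone and sit in the germ line, so every cell of the mouse carries them, and counts per gene cannot check which allele a library has. Line and age changed together, and a difference between Cryab-WT and Cryaa-WT cannot be told apart as one of age or of mouse colony. The p-values measure the spread between pooled libraries.

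The respiratory chain passes electrons from NADH through complex I, complex III and complex IV to oxygen and pumps protons out of the mitochondrial matrix, and complex V, the ATP synthase, uses their return to make ATP. Its complexes are built from subunits of both genomes: the mitochondrial DNA encodes hydrophobic core subunits, and the nucleus encodes the remaining core and the accessory subunits. In the lens, the epithelium and young outer fibre cells hold mitochondria, while fibre cells that mature lose mitochondria and nuclei together.

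The total count of a library lay between 14272174 and 29639719, of which the mitochondrial members held between 0.231% and 1.17% and the nuclear members between 0.369% and 1.03%. Crystallin genes and Gm42418, a gene that overlaps ribosomal RNA, took most of the rest, and Gm42418 alone ranged from 2.53% of the counts of Cryaa-R49C-homo replicate 1 to 42.6% of those of Cryaa-R49C-homo replicate 3. The lens label was checked against 8 fibre cell genes, whose summed level lay between 1149 and 11960 CPM (counts relative to library size, scaled with edgeR's TMM method), with Lim2 at 0 in all libraries. The genotype field of the 6 mutant Cryab libraries named the other line, so groups were taken from the titles.

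Mitochondrial genes were counted unevenly, and the sequence of 3 of them shows where. The first 50 bases of each gene are given below, as 1 sequenced read would cover them, with the start codon in capitals (mouse GRCm38, plus strand, chrM:7013-7062, chrM:8607-8656 and chrM:14145-14194).
mt-Co2: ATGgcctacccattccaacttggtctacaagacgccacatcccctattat
mt-Co3: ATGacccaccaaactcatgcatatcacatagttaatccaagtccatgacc
mt-Cytb: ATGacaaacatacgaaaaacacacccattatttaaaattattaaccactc
The mt-Co2 stretch also occurs, base for base, in Gm28661 and the mt-Co3 stretch in Gm28437, both pseudogenes of mitochondrial origin on chromosome 1, whereas the mt-Cytb stretch occurs in no other annotated transcript. Of all 50-base windows of mt-Co2, 100% were found in another annotated gene, against 99.9% for mt-Co3, 99.5% for mt-Atp6, 98.8% for mt-Nd4l and 98.0% for mt-Nd3. These 5 genes held at most 79 counts in any library, and the authors counted only reads that aligned to 1 place. mt-Nd4 shared 62.2% and mt-Co1 51.1% of its windows, mt-Nd2 8.19% and mt-Nd5 7.61%, and mt-Cytb, mt-Nd1, mt-Nd6 and mt-Atp8 shared none. mt-Atp8 and mt-Nd4l were listed at 0 in all 18 libraries; mt-Atp8 shares no window, and what sets it to 0 was not tested. The pseudogenes did not hold the missing reads either: Gm28661 reached at most 4 counts and Gm28437 at most 2.

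**Figure D1:**
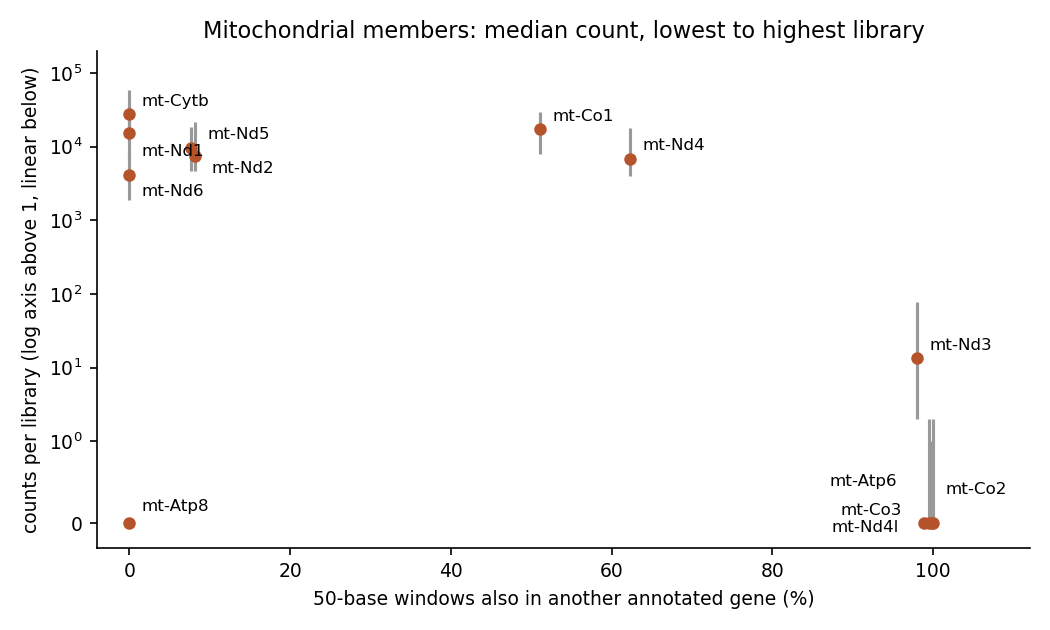
Each point is 1 of the 13 mitochondrial members, with the share of its 50-base windows found in another annotated gene on the x axis (percent) and its median count over 18 libraries on the y axis (log above 1, linear below); bars run from the lowest to the highest library. mt-Nd3, mt-Nd4l, mt-Atp6, mt-Co2 and mt-Co3, with 98.0% to 100% of windows shared, sit at a median of 13.5 counts or 0, and mt-Atp8 is at 0 without sharing.

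A total of 85 members could be tested, 77 nuclear and 8 mitochondrial, after edgeR's filterByExpr filter on low counts. The 8 that did not pass were mt-Co2, mt-Co3, mt-Atp6, mt-Atp8, mt-Nd4l, Cox7b2, Cox8b and Cox8c. Cox7b2, Cox8b and Cox8c are isoforms of complex IV known from testis or from heart and skeletal muscle, and Cox8c was listed at 0 in all libraries while Cox8b reached 13 counts in Cryab-R120G-het replicate 1. mt-Nd6 lies on the other strand from mt-Nd5, and the genes overlap only at their ends (chrM:13552-13565). Since the strand setting of the counting is not stated, reads within mt-Nd6 cannot be told apart by strand.

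Per kilobase of exon, mt-Cytb and mt-Nd1 had the highest counted levels among the members in both WT groups. In Cryaa-WT lenses mt-Cytb, the cytochrome b of complex III, had a mean level of 922 CPM per kilobase and mt-Nd1, a membrane subunit of complex I, had 715. Of the 13 mitochondrial members, 6 lay above the highest nuclear one, Ndufa1, an accessory subunit of complex I with 227 CPM per kilobase, and the median of the 80 nuclear members was 25.5. In Cryab-WT lenses mt-Cytb had 1451 and mt-Nd1 735 CPM per kilobase, Ndufa1 had 563 and the nuclear median was 41.6, so that only these 2 mitochondrial members lay above Ndufa1. Levels of mt-Co1 and mt-Nd4 per kilobase omit the reads of the windows they share. The 5 mitochondrial members with over 97% of windows shared held at most 79 counts in any library. The order, and the number of members above Ndufa1, thus hold for counted reads and not for the RNA itself.

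Nuclear and mitochondrial members were first set against each other inside each library, as the summed counts of the mitochondrial members over those of the nuclear members, a ratio that no scaling changes. It was 0.838, 0.966 and 0.933 in the 3 Cryaa-WT libraries and 0.668, 0.623 and 0.602 in the 3 Cryab-WT libraries. The mitochondrial share was thus lower at day 14 without overlap, by a mean difference of -0.53 on the log2 scale, with an SD of 0.11 in Cryaa-WT and 0.08 in Cryab-WT (n = 3 each). Without mt-Cytb and Atp5b, the most counted gene of either kind, the difference was -0.69, and as the median log2 CPM of mitochondrial minus nuclear members it was -0.33, with groups that overlapped. Single genes differed in size: against the nuclear sum, mt-Nd1 was lower at day 14 by a log2 difference of -0.86, mt-Nd5 by -0.79, mt-Co1 by -0.74 and mt-Cytb by -0.25, each without overlap, while mt-Nd2, with -0.20, overlapped.

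The Cryaa-R49C-het libraries had ratios of 0.877, 0.874 and 0.961, inside the range of their WT. The Cryaa-R49C-homo libraries spread from 0.616 in replicate 1 through 1.20 in replicate 2 to 1.63 in replicate 3, on both sides of WT, with an SD of 0.72 on the log2 scale. Their mean log2 difference from WT was 0.22, and without replicate 1 it was 0.62. By medians of log2 CPM it was 0.46, and without the most counted gene of each kind 0.11. Gm42418 took 2.53%, 24.5% and 42.6% of the counts of the same 3 libraries, and its part in the ratio was not tested. In the Cryab line the het libraries had 0.670, 0.643 and 0.636, overlapping WT, and the homo libraries 0.715, 0.773 and 0.703, all above their WT by a mean log2 difference of 0.21 (SD 0.07 in homo and 0.08 in WT, n = 3 each). As a difference of median log2 CPM the last value was 0.097, and the groups then overlapped. The summed level of 7 photoreceptor genes lay between 205 and 1216 CPM in these homo libraries and between 21.9 and 808 CPM in their WT. Genes of pigment and ciliary epithelium summed to 20.6 to 55.8 CPM in homo and 8.13 to 21.6 CPM in WT, with overlap. Fibre genes summed to 3462 to 9875 CPM in homo and 9901 to 11960 CPM in WT, and skeletal muscle genes to 2.52 to 2.82 CPM and 1.53 to 2.20 CPM, both without overlap. The part of these genes was not tested.

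**Figure D2:**
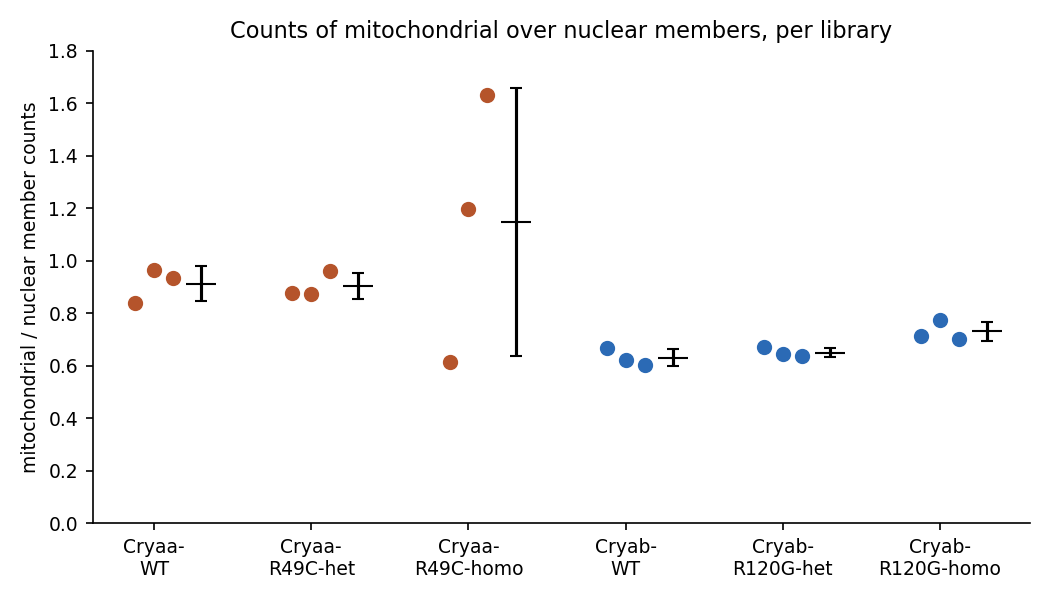
The summed counts of the 13 mitochondrial members over those of the 80 nuclear members (y axis) for each library of the 6 groups, with day 2 groups in brown, day 14 groups in blue and the mean ± SD (n = 3) in black. Cryab-WT libraries, between 0.602 and 0.668, lie below the Cryaa-WT libraries, between 0.838 and 0.966, and the Cryaa-R49C-homo libraries spread from 0.616 to 1.63.

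Between the WT groups, most nuclear subunits rose from day 2 to day 14 relative to the median gene, by TMM scaling; with library size alone none rose. In the model of all 18 libraries, 53 of 77 tested nuclear members were higher at day 14 and 1 was lower, with a median log2 fold change of 0.91, and of the 8 tested mitochondrial members 1 was higher and none lower, with a median of 0.21 (edgeR's quasi-likelihood test, Benjamini-Hochberg adjusted p of at most 0.05). Over all 13938 genes tested, 23.2% passed, 11.7% as higher and 11.5% as lower, and the median log2 fold change was -0.07. The mitochondrial median was 0.10 without Cryaa-WT replicate 3, 0.11 without Cryab-WT replicate 1, 0.32 without Cryaa-WT replicate 2 and 0.050 with every gene that had a count. Crystallin genes held 46.3% to 48.99% of the Cryaa-WT counts and 62.8% to 70.6% of the Cryab-WT counts, and the direction depended on the scaling. With library size alone the median of all genes became -1.61, that of the nuclear members -0.63 and that of the mitochondrial members -1.32, and 45 nuclear and 8 mitochondrial members were lower, where 82.0% of all genes were lower and 1.13% higher. With library size counted without crystallins and Gm42418, the 3 medians were -0.83, 0.16 and -0.55, with 6 nuclear members higher and 6 lower, where 3.09% of all genes were higher and 45.8% lower. The distance of the nuclear median from the median gene was 0.98, 0.99 and 0.99 under the 3 scalings, and that of the mitochondrial median 0.27, 0.29 and 0.28. Fold changes below are therefore relative to the median gene.

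Complex I gave the widest set. Of its 37 nuclear members 29 rose and 1 fell, where 11.7% of all genes rose and 11.5% fell. Ndufa1, needed for the membrane arm of the complex, had 103, 113 and 69.0 CPM in the Cryaa-WT libraries and 253, 203 and 252 CPM in the Cryab-WT libraries. The day 14 libraries all lay above the day 2 libraries, and its log2 fold change was 1.31 ± 0.26 (SE; adjusted p = 0.0010). Ndufa13, an accessory subunit also called GRIM-19, went from 121, 117 and 86.6 CPM to 265, 245 and 289 CPM, with 1.30 ± 0.21 (adjusted p = 0.00015). Ndufa5 (1.30), Ndufb8 (1.29) and Ndufb4 (1.28), all accessory subunits, were close behind, and Ndufb4 did so from a low level of 4.76 to 7.11 CPM. Some windows of Ndufa13, 27.1%, are shared with the neighbouring gene Tssk6.

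The 7 core subunits of complex I carry its flavin and iron-sulfur clusters or line its quinone site. Their median log2 fold change was 0.71, against 1.04 for the 30 other nuclear members. Of the core subunits 4 of 7 rose and of the others 25 of 30, where 11.7% of all genes did. Exons of the core subunits were longer, with a median of 2178 bases against 1234. Neither the difference between the sets nor the part of length in it was tested. Ndufs3 (0.73), Ndufs7 (0.71), Ndufs8 (0.72) and Ndufv2 (0.85) passed the test. Of 12 alternatives the call was kept in 2 for Ndufs3, 6 for Ndufs7 and 7 for Ndufs8, and it was lost for Ndufs3 without any 1 of the 6 WT libraries, for Ndufs7 without Cryaa-WT replicate 3 or Cryab-WT replicate 2 or 3, and for Ndufs8 without replicate 3 of either group. Ndufs1, the largest iron-sulfur subunit, had 9.28, 10.4 and 12.5 CPM at day 2 and 6.38, 13.6 and 9.86 CPM at day 14, and Ndufv1, which binds NADH, had 30.3, 27.4 and 30.4 CPM and 22.2, 27.2 and 24.8 CPM. Neither passed the test, with log2 fold changes of -0.10 ± 0.28 (adjusted p = 0.84) and -0.24 ± 0.29 (adjusted p = 0.59).

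In complex III, 5 of 8 nuclear members rose, where 11.7% of all genes did. Uqcr10 (1.23), Uqcr11 (1.23), Uqcrh (1.08), Uqcrq (1.01) and Uqcrb (0.90), passed the test, all small subunits. The core proteins Uqcrc1, with 0.62 ± 0.34 (adjusted p = 0.20), and Uqcrc2, with 0.75 ± 0.28 (adjusted p = 0.052), and the Rieske iron-sulfur protein Uqcrfs1, with 0.40 ± 0.25 (adjusted p = 0.26), did not. Their mitochondrial partner mt-Cytb had 1083, 1177 and 905 CPM at day 2 and 1622, 1648 and 1710 CPM at day 14, and its log2 fold change of 0.65 ± 0.26 did not pass (adjusted p = 0.070) although the groups did not overlap.

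In complex IV, cytochrome c oxidase, 10 of 15 tested nuclear members rose, against the same 11.7% of all genes. Cox4i1, which helps to regulate the enzyme, went from 233, 224 and 193 CPM to 419, 419 and 391 CPM, a log2 fold change of 0.92 ± 0.20 (adjusted p = 0.0019). Cox5a (1.15) and Cox5b (0.80) rose too, although the call of Cox5b was lost without Cryaa-WT replicate 3 or Cryab-WT replicate 2. Cox6c had the highest value of the complex, 1.29 ± 0.25, from 51.9 to 59.1 CPM at day 2 and 134 to 143 CPM at day 14. The catalytic subunit mt-Co1, which holds the site where oxygen is reduced, had 760, 856 and 667 CPM and then 868, 841 and 845 CPM, and its log2 fold change of 0.16 ± 0.24 did not pass (adjusted p = 0.67).

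In complex V, 9 of 17 nuclear members rose, again against 11.7% of all genes. Atp5k (1.24), a small membrane subunit, chosen after its values were seen, and Atp5c1 (0.92), the central stalk, passed the test, and the call of Atp5c1 was lost when any WT library except Cryab-WT replicate 1 was left out. In the catalytic head, Atp5a1 had 117, 111 and 110 CPM at day 2 and 111, 117 and 107 CPM at day 14, with overlapping groups and -0.01 ± 0.22 (adjusted p = 0.97). Atp5b had 352, 337 and 261 CPM and then 440, 467 and 410 CPM, without overlap, and 0.47 ± 0.29 did not pass (adjusted p = 0.26). Atp5g1 (0.41, adjusted p = 0.23) and Atp5g3 (0.42, adjusted p = 0.12), which encode the same mature subunit c of the rotor ring, did not pass. The third gene for subunit c, Atp5g2, held at most 16 counts in any library and shared 38.3% of its windows with other genes.

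Of the mitochondrial members of complex I, only mt-Nd2 passed the test among the 6 tested, with 296, 369 and 267 CPM at day 2 and 553, 473 and 481 CPM at day 14 and a log2 fold change of 0.69 ± 0.25 (adjusted p = 0.0498). Its call was lost when any WT library except Cryaa-WT replicate 2 was left out, and with every gene that had a count (adjusted p = 0.10). mt-Nd1 had 0.04 ± 0.23, mt-Nd5 0.11 ± 0.24, mt-Nd6 0.25 ± 0.25, mt-Nd4 0.46 ± 0.27 and mt-Nd3 -0.15 ± 0.60, the last from 4 to 22 counts a library.

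**Figure D3:**
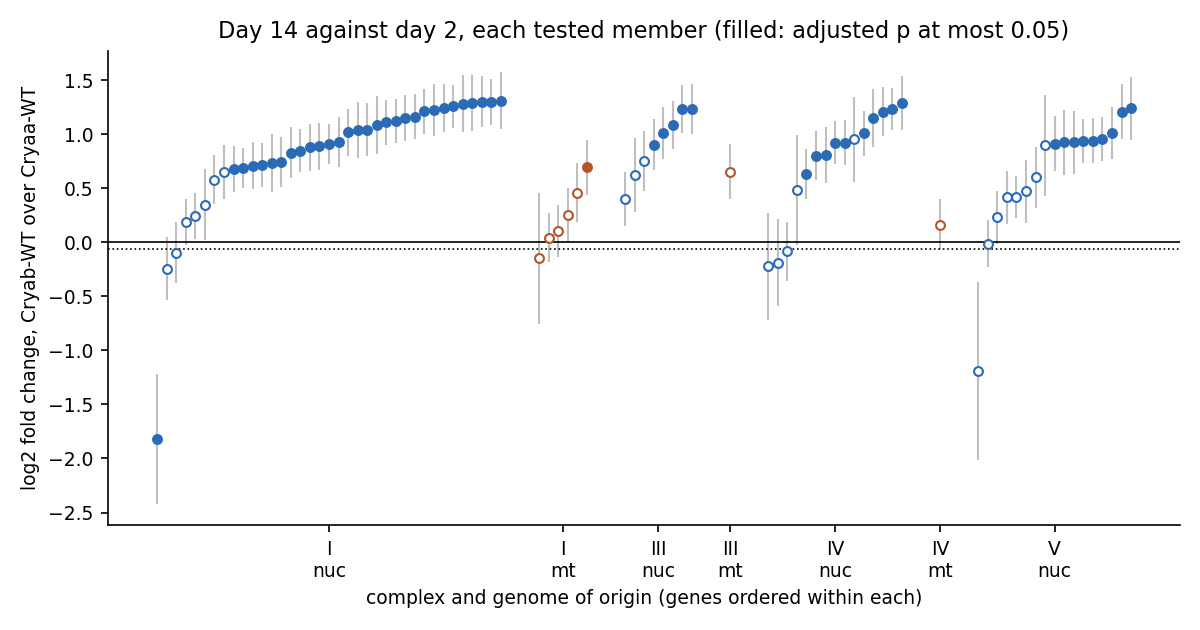
Log2 fold change of Cryab-WT over Cryaa-WT (y axis, TMM scaling, bars ± SE, 3 libraries a group) for the 85 tested members, ordered within complex and genome of origin (nuclear in blue, mitochondrial in brown), filled where the adjusted p was at most 0.05; the dotted line is the median of all genes. The median is 0.91 over the nuclear members and 0.21 over the mitochondrial members, which run from -0.15 to 0.69. Both medians are below 0, at -0.63 and -1.32, when only library size is used for scaling.

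The nuclear members have short exons, and fold changes fell with exon length over all genes. Among genes under 1 kb of exon, the 588 other genes had a median log2 fold change of 0.49 and the 20 nuclear members 1.02. From 1 to under 2 kb the medians were 0.28 for 1481 other genes and 0.92 for 30 nuclear members, and from 2 to under 4 kb 0.05 for 3998 other genes and 0.79 for 18 members. At 4 kb and over they were -0.21 for 7753 other genes and 0.68 for 9 members. Spearman's rho between exon length and log2 fold change was -0.24 over the 77 nuclear members and -0.21 over 13820 other genes, all read in the same libraries. The median of the nuclear members lay above that of other genes in each length class, and both declined with length. The part of length in the rise was not tested.

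**Figure D4:**
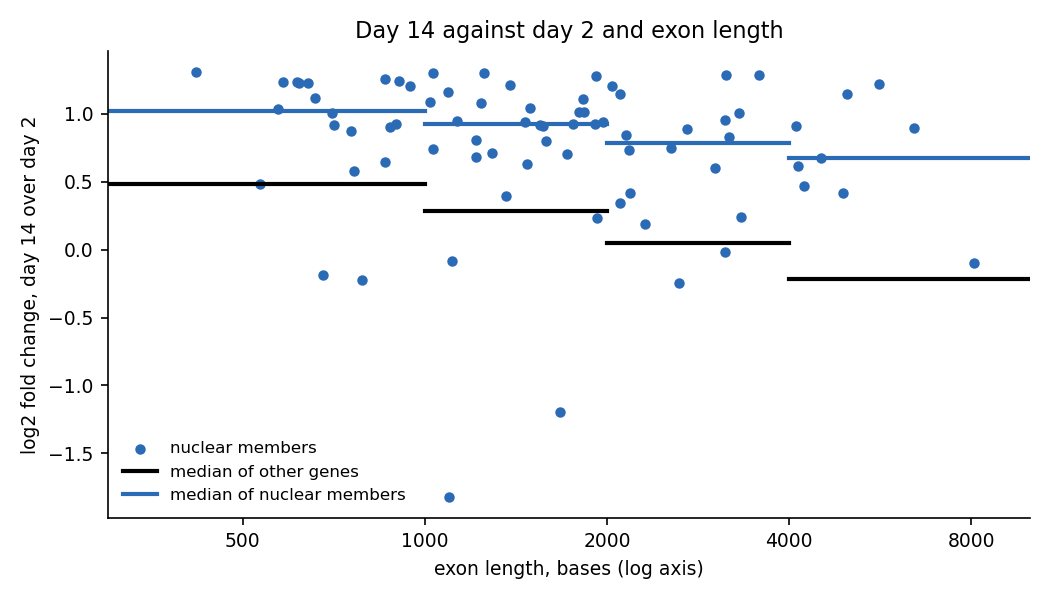
Log2 fold change of Cryab-WT over Cryaa-WT (y axis, TMM scaling) against exon length in bases (x axis, log) for the 77 tested nuclear members as points, with their median in each of 4 length classes in blue and that of all other tested genes in black. The blue lines run from 1.02 to 0.68 and the black lines from 0.49 to -0.21; library size alone lowers all values together, by about the shift of the median gene to -1.61.

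Fibre cell genes rose in the same comparison, with 4 of 7 tested higher and a summed level of 2989 to 4840 CPM in Cryaa-WT and 9901 to 11960 CPM in Cryab-WT, and fewer cells of a type and less RNA per cell cannot be told apart in whole lenses. All 6 macrophage genes fell, from a sum of 5.91 to 13.4 CPM to one of 0.467 to 2.31 CPM. Of 9 genes of pigment and ciliary epithelium 5 fell, from a sum of 25.1 to 46.7 CPM to one of 8.13 to 21.6 CPM, and of 6 of vessels and mesenchyme 4 fell, from 19.5 to 39.0 CPM to 7.64 to 13.8 CPM. Of 6 genes of lens epithelium Gja1 and Pax6 fell and none rose, with a list median of 0.14, and their summed level was 269 to 380 CPM at day 2 and 442 to 489 CPM at day 14, without overlap. None of 5 erythroid genes passed. The part of these cells in the result was not tested. Photoreceptor genes, a sign of retina in the dissection, summed to 7.46 to 31.9 CPM in Cryaa-WT and to 808, 21.9 and 84.2 CPM in the 3 Cryab-WT libraries, with 5 of 7 higher. Without Cryab-WT replicate 1, the library with 808 CPM, the nuclear median was 0.95 with 50 members higher, where 10.2% of all genes were.

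Genes around the respiratory chain were read from lists. Their counts are to be read against the 11.7% of all genes that rose and the 11.5% that fell. Of 16 other oxidative phosphorylation genes 5 rose and none fell (median 0.45), among them Sdhb, the iron-sulfur subunit of complex II (0.98) and Slc25a4, an ADP/ATP carrier (0.98). Of 32 tested assembly factors 10 rose (median 0.38), led by Cox20 (1.65), a chaperone of the mt-Co2 protein, Bcs1l (1.35), which inserts the Rieske protein, and Ndufaf5 (1.29). Of 74 tested proteins of the mitochondrial ribosome 20 rose (median 0.50), with Mrps6 (1.81) highest. Of 16 genes of the TCA cycle and pyruvate dehydrogenase 2 rose (median 0.42), among them Suclg1 (0.81). Of 16 tested import genes 2 rose (median 0.29), Timm8b (1.10) and Tomm7 (0.75). Of 8 chaperones and proteases 1 rose (median 0.30), Hspe1 (1.17). The counts of the last 3 lists are near the share of all genes. No gene of these 6 lists fell.

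The 20 genes that copy and express mitochondrial DNA had 1 higher, Polg2 (2.16), an accessory subunit of the mitochondrial DNA polymerase. Of 10 nuclear regulators of respiratory genes, Gabpa rose (0.72 ± 0.22, adjusted p = 0.024) and Nrf1 fell (-1.20 ± 0.25, adjusted p = 0.0016).

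GABPA and NRF1 bind GC-rich elements near the starts of respiratory genes, so the promoters of the members were read in the RefSeq table (GRCm38.p6, from 250 bases before to 50 after a start), in which 63 of the 80 nuclear members were found with 68 promoters. Cox6a2 was not among them. Motifs were searched on both strands. The palindromic NRF1 element, in capitals in the Cox6a1 promoter, was in 7.35% of member promoters and 0.971% of 32851 promoters in all, the ETS element CCGGAAGT, bound by GABPA, in 7.35% and 3.89%, and the YY1 element AAGATGGCG in 10.3% and 1.403%. The composite element TGATGNAA of ATF4 and CHOP was in 0 of 68 and in 3.97% of all. One promoter for each of the first 3 elements is given 5′ to 3′ on the gene's strand with the match in capitals, for Cox8a (chr19:7217567-7217866, minus strand, ETS on the opposite strand), Cox6a1 (chr5:115348909-115349208, minus strand, NRF1) and Ndufc1 (chr3:51408906-51409205, minus strand, YY1).
Cox8a: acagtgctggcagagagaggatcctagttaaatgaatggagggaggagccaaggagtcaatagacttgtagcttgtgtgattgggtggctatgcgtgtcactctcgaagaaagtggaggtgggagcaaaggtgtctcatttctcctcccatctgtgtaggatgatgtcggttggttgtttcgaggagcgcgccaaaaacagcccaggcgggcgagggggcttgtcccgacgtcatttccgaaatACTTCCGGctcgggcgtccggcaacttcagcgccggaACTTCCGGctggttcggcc
Cox6a1: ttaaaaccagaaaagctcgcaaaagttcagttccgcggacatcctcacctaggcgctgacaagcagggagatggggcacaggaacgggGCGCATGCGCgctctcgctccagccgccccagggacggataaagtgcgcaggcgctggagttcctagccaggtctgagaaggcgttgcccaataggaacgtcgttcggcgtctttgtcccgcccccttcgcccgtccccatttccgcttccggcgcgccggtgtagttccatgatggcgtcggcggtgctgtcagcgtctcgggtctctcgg
Ndufc1: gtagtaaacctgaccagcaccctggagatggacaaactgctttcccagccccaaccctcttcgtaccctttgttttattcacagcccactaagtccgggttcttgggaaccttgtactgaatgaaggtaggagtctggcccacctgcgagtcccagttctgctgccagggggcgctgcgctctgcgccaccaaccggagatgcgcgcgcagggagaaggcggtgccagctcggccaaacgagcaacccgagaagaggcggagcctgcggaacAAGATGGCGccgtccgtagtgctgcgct
The promoters shown are examples from 5 member genes with the ETS, 5 with the NRF1 and 7 with the YY1 element. Cox8a rose with 1.23 ± 0.20 (adjusted p = 0.00011), Cox6a1 with 1.01 ± 0.21 (adjusted p = 0.0014) and Ndufc1 with 1.04 ± 0.25 (adjusted p = 0.0039). Of all tested nuclear members 53 of 77 rose. Whether members with an element changed more than those without was not tested. A match describes the letters of the window and is not a measured site.

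Ndufa4l2, a paralogue of Ndufa4 known to be induced in hypoxia, was the only nuclear member that fell: it had 5.32, 2.80 and 10.96 CPM at day 2 and 1.10, 1.60 and 2.60 CPM at day 14, with groups that did not overlap and a log2 fold change of -1.82 ± 0.60 (adjusted p = 0.039). The call was lost when either Cryaa-WT replicate 1 or 3 or any Cryab-WT library was left out, with -1.17 (adjusted p = 0.20) without Cryaa-WT replicate 3. Ndufa4 itself, grouped here with complex I by its name and known as a subunit of complex IV, rose from 72.3, 69.9 and 55.2 CPM to 150, 144 and 164 CPM (1.21 ± 0.21, adjusted p = 0.00026). The counts of Ndufa4l2 made up 6.86%, 3.85% and 16.6% of the pair at day 2 and 0.730%, 1.10% and 1.56% at day 14.

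Of the complex IV pairs, the widely expressed isoform took most of the counts, which are not corrected for length here. In Cryaa-WT lenses Cox4i2, the isoform of lung and of low oxygen, made up 1.11% ± 0.64 (SD, n = 3) of the counts of its pair with Cox4i1, Cox6b2, the testis isoform, 4.19% ± 0.80 of its pair with Cox6b1, and Cox7a1, the muscle isoform, 0.7502% ± 0.39 of its pair with Cox7a2. In Cryab-WT lenses the shares were 0.499% ± 0.25, 2.09% ± 0.43 and 0.443% ± 0.05. Cox7a2 (1.21), Cox7a2l (0.63), which helps to join complexes into supercomplexes, Cox6b1 (0.92), Cox7b (0.81) and Cox8a rose, whereas Cox4i2 (-0.22), Cox6b2 (-0.09), Cox6a2 (-0.19) and Cox7a1 (0.48) did not pass the test. The call of Cox7a2l was lost without any 1 of the 6 WT libraries, and that of Cox7b without Cryaa-WT replicate 2 or 3 or Cryab-WT replicate 1 or 3.

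In Cryaa-R49C-homo lenses the member with the largest log2 fold change was Cox6a2, the complex IV subunit of heart and skeletal muscle (chr7:128205435-128206387, minus strand, GRCm38). It had 1.11, 1.35 and 1.47 CPM in Cryaa-WT, 1.12, 1.99 and 1.10 CPM in het and 7.57, 21.5 and 17.8 CPM in homo. All homo libraries lay above all others of either line, and the log2 fold change against WT was 3.56 ± 0.36 (adjusted p = 7.6e-07). It kept its call under each of 12 alternatives, with values from 3.26 to 3.93. Its share of the counts of the pair with Cox6a1 went from 0.751%, 0.849% and 1.32% in WT to 6.21%, 17.5% and 14.2% in homo, while Cox6a1 itself had 146, 158 and 110 CPM and 114, 101 and 108 CPM (-0.36 ± 0.21, adjusted p = 0.31). In the Cryab line Cox6a2 stayed at 0.593 to 1.64 CPM in all 9 libraries.

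The 7 skeletal muscle genes summed to 3.50, 2.67 and 2.51 CPM in the homo libraries and to 1.92, 1.72 and 27.2 CPM in WT, and none of the 4 tested passed. WT replicate 3 lay above all homo libraries and the other WT libraries below them. Of the other muscle isoforms, Cox7a1 had 0.38 ± 0.47 (adjusted p = 0.69) and Cox8b had 0 counts in each homo library.

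**Figure D5:**
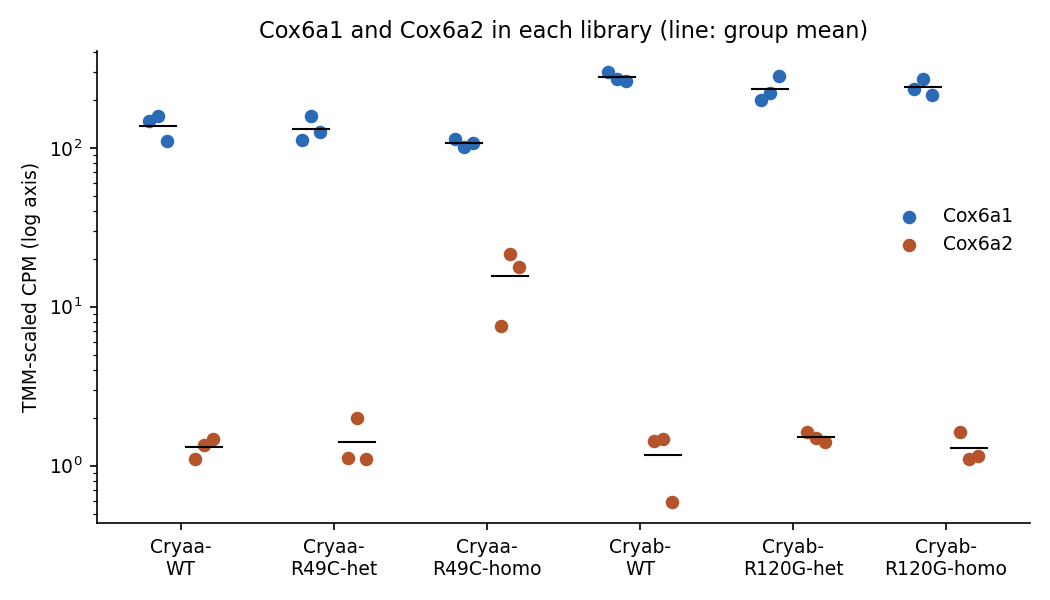
TMM-scaled CPM (y axis, log) of Cox6a1 in blue and Cox6a2 in brown in each library of the 6 groups, with the group mean as a line. Cox6a2 lies between 7.57 and 21.5 CPM in the 3 Cryaa-R49C-homo libraries and between 0.593 and 1.99 CPM in the other 15.

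Beside Cox6a2, Uqcrq and Uqcrb of complex III and mt-Nd2 rose, so that 3 of 77 nuclear and 1 of 8 mitochondrial members were higher and none lower in homo, where 9.79% of all genes passed, 4.87% as higher and 4.92% as lower. Uqcrq, a small subunit next to cytochrome b, had 84.1, 79.2 and 57.6 CPM in WT and 91.3, 192 and 141 CPM in homo (0.94 ± 0.24, adjusted p = 0.013). Uqcrb had 27.4, 28.2 and 23.8 CPM and 31.0, 68.5 and 42.2 CPM (0.83 ± 0.24, adjusted p = 0.028), and mt-Nd2 had 296, 369 and 267 CPM and 302, 675 and 676 CPM (0.83 ± 0.25, adjusted p = 0.039). For Uqcrb and mt-Nd2 the call was lost without any one of the WT libraries, and for Uqcrq without WT replicate 3. All 3 calls were lost without homo replicate 2 and in a model of the 9 Cryaa libraries alone, and mt-Nd2 was not called without homo replicate 3. The median log2 fold change was 0.17 over the nuclear and 0.33 over the mitochondrial members, and 0.00 over all genes. Leaving out 1 library gave 0.05 to 0.24 for the nuclear and 0.15 to 0.60 for the mitochondrial members, and with every gene that had a count the mitochondrial median was -0.032.

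The homo libraries differed among themselves. In replicate 1, 36 of 85 members lay above all WT libraries, 19 below and 30 inside their range. In replicate 2 these were 43, 27 and 15, and in replicate 3 they were 30, 33 and 22. The same shares over all genes were not taken, so these counts are not read as particular to the members. Leaving replicate 1 out raised the calls from 4 to 34 members, 21 higher and 13 lower, and those of all genes from 9.79% to 21.5%, 9.20% as higher and 12.3% as lower. Without it 5 nuclear members of complex I, 2 of complex III, 1 of complex IV and 4 of complex V were lower, and 9, 3, 3 and 2 higher, with 4 mitochondrial members higher and 1 lower. Atp5b, the catalytic β subunit of the ATP synthase, had 416 CPM in replicate 1 and 168 and 129 CPM in replicates 2 and 3, against 261 to 352 CPM in WT. Ndufv1 had 36.4 CPM in replicate 1 and 13.1 and 11.2 CPM in the others, against 27.4 to 30.4 CPM in WT. Without replicate 1 the log2 fold changes were -1.09 (adjusted p = 0.00021) for Atp5b, -1.27 (adjusted p = 1.4e-05) for Ndufv1 and -1.37 (adjusted p = 3.0e-05) for Uqcrc1, and 0.82 for mt-Cytb, 0.89 for mt-Nd4 and 1.12 for mt-Nd2. With all 3 libraries Atp5b (-0.41 ± 0.29, adjusted p = 0.43) and Ndufv1 (-0.53 ± 0.29, adjusted p = 0.28) did not pass.

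Around the chain, counts in homo are to be read against the 4.87% of all genes that rose and the 4.92% that fell. Of 32 assembly factors 3 rose, Ndufaf2 (0.96), Ndufaf6 (0.86) and Uqcc2 (0.66), and 11 of 74 mitochondrial ribosome proteins rose with 1 lower, among them Mrps22 (1.12) and Mrpl40 (1.07), the lower one being Mrpl28 (-1.51). Of the genes of mitochondrial DNA expression Polrmt (1.27) and Slirp (0.95) rose among 20, and of import Tomm40 (1.32), the outer membrane channel, and Timm10 (1.14) among 16. Of the chaperones Hspa9 (1.19), the mitochondrial Hsp70, rose among 8. The other oxidative phosphorylation genes had 1 higher, Atpif1 (0.67), the ATP synthase inhibitor, and 1 lower, Vdac1 (-0.75), an outer membrane pore, of 16. Of the 16 genes of the TCA cycle and pyruvate dehydrogenase, Pdha1 (0.88), of pyruvate dehydrogenase, was higher and Idh3b (-0.90) lower. Of the 10 regulators Gabpa was lower (-1.02). Medians of these 8 lists lay between -0.10 and 0.34. Fibre genes fell in the same libraries, 4 of 7, to a sum of 1149 to 1770 CPM, and 2 of 6 macrophage genes rose, to a sum of 13.8 to 27.8 CPM. Of 9 genes of pigment and ciliary epithelium 2 fell, with a sum of 14.3 to 19.5 CPM against 25.1 to 46.7 CPM in WT. Of 6 genes of lens epithelium Gja1 fell and none rose. Their sum was 302, 555 and 429 CPM in the homo libraries and 269 to 380 CPM in WT. Of the vessel and mesenchyme genes Cdh5 rose and Col1a2 fell. The part of these cells was not tested.

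No member passed in the other genotype comparisons. In Cryaa-R49C-het against WT 0.00717% of all genes passed, and 1 member, Atp5sl, and 708 genes of all had an unadjusted p under 0.05. The nuclear median was 0.13 and the mitochondrial median 0.05. Leaving out 1 library gave 0.025 (het replicate 2) to 0.20 (het replicate 3) for the nuclear median and -0.05 (het replicate 2) to 0.17 (WT replicate 2) for the mitochondrial one, and without WT replicate 3 they were 0.033 and -0.019. In Cryab-R120G-het against WT 0.00717% of all genes passed, no member and 532 genes had an unadjusted p under 0.05, and the medians were 0.00 for both kinds, from -0.08 without het replicate 3 to 0.07 and 0.04 without het replicate 1. In Cryab-R120G-homo against WT 0.0502% of all genes passed, 0.0287% as higher and 0.0215% as lower, and no member and 851 genes had an unadjusted p under 0.05. The nuclear median there was -0.15 and the mitochondrial median 0.00, as was the median of all genes, with 7 core subunits of complex I at a median of 0.02 and its 30 other nuclear members at -0.19. Without homo replicate 3 the nuclear median was -0.07, without homo replicate 2 it was -0.23, and with library size alone it was 0.22, where the median of all genes was 0.37. DESeq2 and the other settings also called no member in these 3 comparisons.

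The homo effects of both lines were compared directly, as the log2 fold change in the Cryab line minus that in the Cryaa line. Cox6a2 was the only member that passed, with -3.40 ± 0.55 (adjusted p = 0.00085), where 2.91% of all genes passed, 1.75% as higher and 1.16% as lower. Uqcrq had -1.19 ± 0.34 (adjusted p = 0.057) and mt-Nd2 -0.89 ± 0.36 (adjusted p = 0.22). Without Cryaa-R49C-homo replicate 1, 26 members passed, 8 higher and 18 lower, where 7.76% of all genes passed as higher and 4.74% as lower. Without Cryab-R120G-homo replicate 3, 3 members passed, 2 higher and 1 lower, where 1.53% and 0.925% of all genes did. The lines differ in age as well as in the mutated gene.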

How the data were processed

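RNA of whole lenses was measured in 18 libraries, 3 in each of 6 groups taken from the sample titles, with totals between 14272174 and 29639719 counts. Per the labels and the study's methods, the authors made 50-base single reads from a poly-A based kit, processed them with CASAVA 1.8, aligned them to GRCm38 with STAR 2.0.4b and deposited raw counts per gene of uniquely aligned, unambiguous reads from featureCounts 1.4.5. The strand setting is not given in the sources used here, and reads shared between genes are lost from both. The deposited table of normalized values was not used.

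From the counts, 13938 of 40800 genes passed filterByExpr (minimum count 10) and were fitted with edgeR 4.0.16 (R 4.3.3) as 1 model of 6 groups with TMM factors from 0.488 to 2.26. The quasi-likelihood test was called at a Benjamini-Hochberg adjusted p of at most 0.05 over all genes, and the SE is the log2 fold change over the square root of F. The fit was checked on simulated counts. The ratio of mitochondrial to nuclear counts was described without a test. Shared windows of 50 bases were found in GENCODE transcripts, and promoters came from RefSeq (GRCm38.p6).

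The members and lists were chosen with earlier results of these data known. Named were the mitochondrial members, core subunits, isoform families, the 6 largest rises and falls per comparison and at most 3 called genes of each other list. Uqcr10, Uqcr11, Uqcrh, Atp5k, Ndufc1 and the genes listed without Cryaa-R49C-homo replicate 1 were chosen after their values were seen. Some genes that the naming rule covers are not reported here. Alternatives were other scalings, DESeq2 1.42.0, every gene with a count, a replicate block, fewer groups, the mean of the groups of each line and leaving out each library. Replicate numbers of the titles were checked for pairing: every same-numbered correlation was over 0.1 only for Cryab-R120G-homo against WT (0.16 to 0.28).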

Additional observations from a re-analysis of the deposited data

Results flagged for a closer look

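Cox6a2 differed between the lines in its response to the homozygous allele. The log2 fold change in the Cryab line minus that in the Cryaa line was -3.40 ± 0.55 (edgeR's quasi-likelihood interaction test, adjusted p = 0.00085). Over 17 alternatives the value lay between -3.73 and -3.08, with an adjusted p of at most 0.0084. All 3 Cryaa-R49C-homo libraries lay above all 3 of their WT, and the Cryab-R120G-homo libraries, with 1.10 to 1.64 CPM, overlapped theirs, with 0.593 to 1.47 CPM. Age and mouse line cannot be told apart in this difference.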

How the results depend on the processing

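Scaling changed the direction of the day 14 comparison. With library size alone 53 members were called, 0 higher and 53 lower, where 1.13% of all genes were higher and 82.0% lower. With library size without crystallins and Gm42418 15 were called, 6 higher and 9 lower, where 3.09% and 45.8% of all genes were, as both scalings lower the median of all genes. Log2 fold changes that turned below 0 with library size alone included Ndufa1 -0.19, Ndufa13 -0.22, Ndufa5 -0.23, Cox6c -0.26, Ndufb8 -0.24, Ndufb4 -0.23, mt-Co1 -1.37, mt-Cytb -0.87, mt-Nd1 -1.50, mt-Nd2 -0.83, mt-Nd4 -1.06, mt-Nd5 -1.43, mt-Nd6 -1.28, Ndufs3 -0.80, Ndufs7 -0.81, Ndufs8 -0.82, Ndufv2 -0.70, Uqcrc1 -0.91, Uqcrc2 -0.78, Uqcrfs1 -1.16, Cox4i1 -0.62, Cox5a -0.38, Cox5b -0.70, Atp5b -1.05, Atp5c1 -0.63, Cox6a1 -0.51, Cox6b1 -0.62, Cox7a2 -0.32, Cox7a2l -0.90, Cox7b -0.72, Cox8a -0.30, Atp5g1 -1.08, Atp5g3 -1.13, Cox7a1 -1.08 and Ndufa4 -0.32. Those that turned with library size without crystallins and Gm42418 included mt-Co1 -0.59, mt-Nd1 -0.72, mt-Nd2 -0.059, mt-Nd5 -0.65, Ndufs3 -0.018, Ndufs7 -0.037, Ndufs8 -0.036, Cox7a2l -0.12, and, not called in either fit, mt-Cytb -0.096, mt-Nd4 -0.29, mt-Nd6 -0.51, Uqcrc1 -0.13, Uqcrfs1 -0.36, Atp5b -0.28, Cox7a1 -0.29, Atp5g1 -0.32 and Atp5g3 -0.35. Leaving out 1 library gave 39 to 50 members called, against 55, and 12.4% to 21.8% of all genes, against 23.2%. With the mean of the 3 groups of each line, mutants included, 61 nuclear members were higher and 2 lower, with a median of 0.73. There 1 mitochondrial member was higher and 0 were lower, and 22.3% of all genes were higher and 26.5% lower.

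In Cryaa-R49C-homo against WT, 30 members were called with library size alone (15.3% of all genes, 13.5% as higher), 1 in a model of the 9 libraries of the line (7.46%), and 1 to 34 when 1 library was left out (5.03% to 21.5%), where the highest count was without homo replicate 1. For the difference of homo effects, 2 were called with library size alone (1.84% of all genes), 2 with DESeq2 (4.50%), 3 with every gene with a count (3.01%), 2 with the replicate block (3.45%) and 1 to 26 when 1 library was left out (1.68% to 12.5%); without Cryab-R120G-homo replicate 3 there were 3, of which 2 were higher and 1 lower. The cause was not tested.

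The ratio difference of day 14 against day 2 was -0.33 from medians of log2 CPM and -0.69 without the most counted gene of each kind. From medians, the Cryab-R120G-het difference was -0.079 and the Cryab-R120G-homo difference 0.097. Leaving out 1 library gave -0.59 to -0.49 for day 14 against day 2, -0.09 to 0.62 for Cryaa-R49C-homo, 0.01 to 0.09 for Cryab-R120G-het and 0.17 to 0.25 for Cryab-R120G-homo.

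With the replicate block, 51 nuclear members were higher and 1 lower at day 14 (11.1% and 11.2% of all genes), and in Cryab-R120G-homo against WT, whose same-numbered libraries deviate together, the block changed no call of a member. In the other comparisons the samples share only a number. Of the values for single named genes, 2785 kept direction and side of the threshold, 72 lost and 52 gained a call, 42 with a call in at least 1 of the compared fits changed sign, and 64 with no call in either changed sign by at least their SE. Low counts limit mt-Nd3, Cox7a1 and Atp5g2, and 3 libraries a group limit all tests.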
